A study of Mus musculus with 16 samples.

Results

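S100a8, S100a9, Lcn2, Ngp, Retnlg, Il1b, Csf3r, Cxcr2 and Mmp9 are genes known for high expression in neutrophils, and their RNA was followed in the soleus of male mice under falling oxygen. All 9 listed genes have a probe on the array, matched through the transcript that the array design gives for the probe, out of 20972 named genes. Only 5 of the 9 were bright enough to be tested, namely S100a8, S100a9, Lcn2, Retnlg and Csf3r. The soleus is a hindlimb muscle rich in slow fibres. Day 0 stands for muscle before the exposure, and days 3, 7 and 14 for muscle during it. The oxygen level was brought down stepwise to 10% within the first week and stayed there in the second. Every sample, day 0 included, carries the same treatment word in the labels, which name no strain and no age. Day 0 and day 14 have 4 RNA samples each and days 3 and 7 have 3 each, on 16 one-colour Agilent arrays. The labels do not say that the RNA samples came from separate mice, so the p-values measure only the spread between these samples.

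Neutrophils are short-lived white cells that circulate in blood and enter tissue on demand. S100a8 and S100a9 encode the paired subunits of calprotectin, a calcium- and zinc-binding protein that fills the neutrophil cytosol. Lcn2, Ngp, Retnlg and Mmp9 encode secreted or granule proteins, Csf3r and Cxcr2 encode the receptors for granulocyte colony-stimulating factor and for chemokines, and Il1b encodes an inflammatory cytokine. In whole muscle, fewer neutrophils and less of a given RNA per neutrophil cannot be told apart. Some of these genes are also transcribed by other cells, Lcn2 by epithelium and stressed tissue among them.

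The arrays lie on 2 slides. Slide 1 carries days 3 and 7 and day 0 RNA samples 1 and 2, and slide 2 carries day 14 and all 4 day 0 RNA samples, so 2 RNA samples link the slides. Levels are given as the log2 intensity minus the 75th percentile of the array, called the scaled level here, so that 0 is that percentile. Between 48.3 and 55.3% of spots were well above background on slide 1, and between 37.9 and 42.9% on slide 2. The dimmest spot well above background lay at a scaled level of -4.00 to -3.25 on slide 1 and at -2.45 to -1.84 on slide 2, so slide 1 reached lower levels. The 10 slow-muscle markers were well above background on all 16 arrays.

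The genes differed in how well they could be seen. S100a9, Lcn2 and Csf3r were well above background on all 16 arrays, S100a8 on 12, Retnlg on 5 and Ngp on 1. Il1b, Cxcr2 and Mmp9 were well above background on none of the 16 arrays, at any day. Ngp had no array above background at days 3, 7 and 14, and Retnlg had none at day 7. Other neutrophil genes were seen in part. Of 25 listed genes for granule and cytosol proteins, 5 were well above background on no array, among them Mpo, Ltf and Mmp8. Another 8 were so on all 16, namely Elane (neutrophil elastase), Alox5ap, Anxa1, Lrg1, Hp, G0s2, S100a11 and S100a6. Of 22 surface receptor genes on the array, 8 were well above background on no array, among them Cxcr1, Fpr1, Fpr2 and Cd177, and 4 on all 16, Itgam and Itgb2 among them. Of the 9, levels could thus be followed for the calprotectin pair, Lcn2, Csf3r and, near background, Retnlg.

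**Figure D1:**
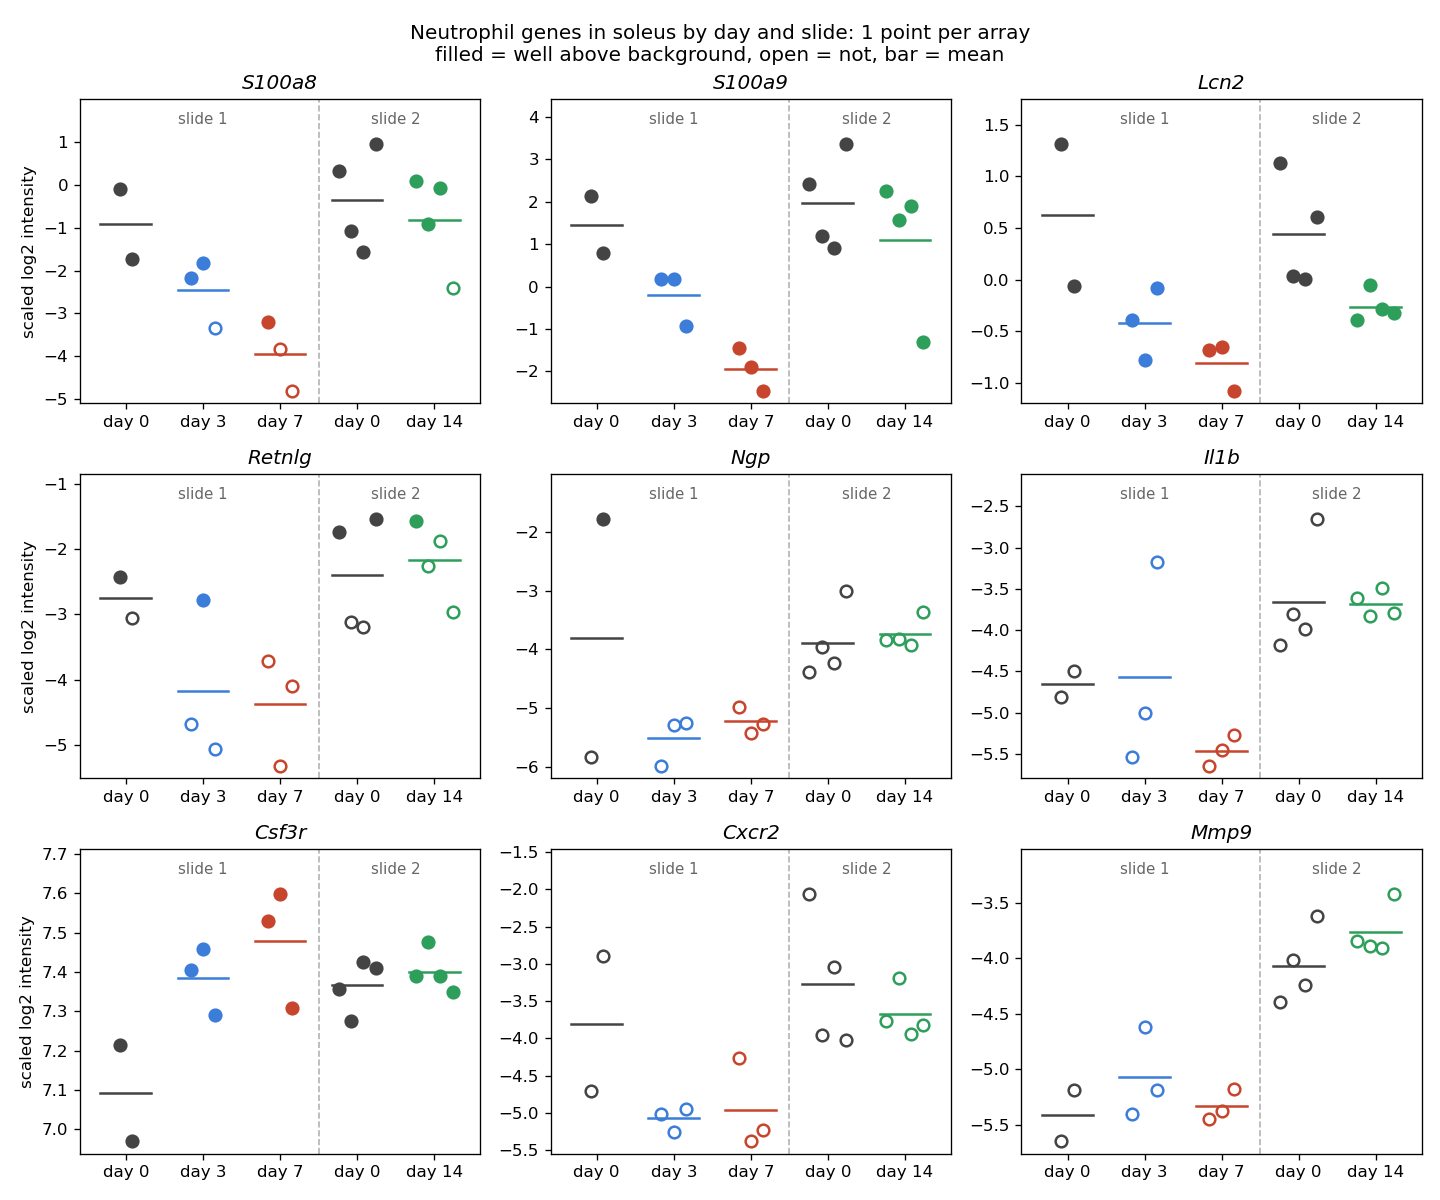
Scaled log2 intensity (vertical axis) of the 9 neutrophil genes by day and slide (horizontal axis), 1 point per array, filled where the spot was well above background and open where not, with a bar at the mean of the arrays. For S100a9 the 3 day 7 points lie between -2.46 and -1.46, below all day 0 and day 3 points, while at day 14 only RNA sample 4 lies low, at -1.30.

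The promoter sequences of the genes that fell are shown because S100a8, on chromosome 3 like S100a9, had the course over the arrays most like that of S100a9 among the named features compared with it. The windows come from RefSeq on GRCm38.p6, with 250 bases before and 50 after the annotated start, and 8 of the 9 genes matched. Capitals mark TATAAA (the TATA box), TTGCNNAA (a C/EBP-type motif) and AGGAAG (an ETS-type core, CTTCCT on the other strand), each searched on both strands. The S100a8 window lies at chr3:90668821-90669120 on the plus strand, the S100a9 window at chr3:90695672-90695971 on the minus strand, and the Lcn2 window at chr2:32387690-32387989 on the minus strand.
S100a8: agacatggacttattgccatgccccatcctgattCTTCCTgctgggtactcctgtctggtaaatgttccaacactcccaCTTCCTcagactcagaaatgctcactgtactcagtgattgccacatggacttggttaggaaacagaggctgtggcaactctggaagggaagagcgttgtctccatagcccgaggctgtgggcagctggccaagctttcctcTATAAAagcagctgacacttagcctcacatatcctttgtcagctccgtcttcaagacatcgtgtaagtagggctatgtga
S100a9: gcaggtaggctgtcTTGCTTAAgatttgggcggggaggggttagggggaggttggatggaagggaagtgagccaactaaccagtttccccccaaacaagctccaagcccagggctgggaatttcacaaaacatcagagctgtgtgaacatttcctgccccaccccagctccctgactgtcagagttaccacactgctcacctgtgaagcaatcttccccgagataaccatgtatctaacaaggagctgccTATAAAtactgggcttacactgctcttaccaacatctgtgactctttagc
Lcn2: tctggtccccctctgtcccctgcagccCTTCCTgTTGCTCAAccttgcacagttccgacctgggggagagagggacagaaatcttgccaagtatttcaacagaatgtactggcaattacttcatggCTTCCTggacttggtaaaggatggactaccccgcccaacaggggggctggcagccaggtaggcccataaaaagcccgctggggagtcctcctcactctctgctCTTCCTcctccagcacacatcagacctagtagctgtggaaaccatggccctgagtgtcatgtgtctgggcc
TATAAA was found in 3 of 8 windows, those of S100a8, S100a9 and Il1b, and in 13.6% of 32851 promoter windows. In S100a8 it began 30 bases before the start, and in S100a9 at the first base after it. TTGCNNAA was found in 4 of 8, those of S100a9, Lcn2, Ngp and Retnlg, and in 10.8% of all windows. AGGAAG was found in 4 of 8, those of S100a8, Lcn2, Csf3r and Cxcr2, and in 35.4% of all windows. None of the 3 motifs was common to the S100a8, S100a9 and Lcn2 windows. These matches describe letters only.

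Calprotectin RNA was lower at day 7 than before the exposure. On slide 1, S100a9 stood at 2.13 and 0.79 in day 0 RNA samples 1 and 2. It stood at 0.18, 0.17 and -0.92 in day 3 RNA samples 1, 2 and 4, and at -1.46, -1.89 and -2.46 in day 7 RNA samples 1, 2 and 4. The 3 days did not overlap, with day 7 lowest. The share of all features whose days separate in this way was not counted, here or for the genes below. On slide 2, S100a9 stood at 2.43, 1.19, 0.92 and 3.36 in the 4 day 0 RNA samples and at 2.25, 1.58, 1.91 and -1.30 in the 4 day 14 RNA samples. Day 14 RNA samples 1 to 3 lay within the day 0 range, and RNA sample 4 lay below it.

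S100a8 took the same order. On slide 1 it stood at -0.10 and -1.73 at day 0, at -2.17, -1.83 and -3.35 at day 3 and at -3.19, -3.82 and -4.81 at day 7. The third day 3 array and the last 2 day 7 arrays were not well above background, so that only 1 of 3 day 7 arrays measured S100a8. Day 0 did not overlap with day 3 or day 7, while days 3 and 7 overlapped. On slide 2 it stood at 0.32, -1.08, -1.58 and 0.95 at day 0 and at 0.08, -0.91, -0.08 and -2.41 at day 14. Again the first 3 day 14 samples lay among the day 0 samples, and RNA sample 4, not well above background, lay below them.

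Lcn2, which encodes lipocalin 2, a secreted protein that binds bacterial iron carriers, spanned a smaller range. On slide 1 it stood at 1.31 and -0.06 at day 0, at -0.39, -0.78 and -0.08 at day 3 and at -0.69, -0.65 and -1.08 at day 7. Every later array lay below both day 0 arrays, the highest day 3 array only just, and days 3 and 7 overlapped. On slide 2 it stood at 1.13, 0.03, 0.01 and 0.61 at day 0 and at -0.39, -0.05, -0.28 and -0.33 at day 14. All 4 day 14 samples lay below all 4 day 0 samples, but the nearest of them were close, at -0.05 and 0.01.

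In the fit over all arrays, S100a9 was lower at day 7 than at day 0 by a log2 difference of -3.47 ± 0.89 (SE), 11.1-fold, with an adjusted p of 0.0147 in limma. S100a8 was lower by -3.04 ± 0.82, with a limma adjusted p of 0.0178, but 2 of its 3 day 7 arrays were not well above background, so no fold is given. With levels floored at background the S100a8 difference was -2.43 (limma adjusted p = 0.0140), with normexp background correction -1.23 (0.00366) and in the deposited series table -1.48, where the call was lost (0.0720). Lcn2 was lower by -1.37 ± 0.33, 2.59-fold, with a limma adjusted p of 0.0111. The 95% intervals ran from -5.39 to -1.55 for S100a9, from -4.80 to -1.28 for S100a8 and from -2.08 to -0.66 for Lcn2. So 3 of the 5 tested genes fell at day 7 and 1, Csf3r, rose. Among all 22124 features, 23.7% were called at day 7 and 8.11% were called lower. The day 0 groups against which these falls stand hold RNA sample 1, the brightest day 0 sample of slide 1 for S100a8, S100a9 and Lcn2.

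These calls depended on single day 0 samples. Without day 0 RNA sample 1 none of the 9 genes was called at day 7, with limma adjusted p of 0.105 for S100a9, 0.134 for S100a8 and 0.0736 for Lcn2. The differences were then -3.01, -2.43 and -0.83. Of all 22124 features, 2669 were called in that setting, against 5247 with all samples. Without day 0 RNA sample 2, only Lcn2 passed, with a limma adjusted p of 0.0466, and the number of all features called dropped from 5247 to 106. Without day 7 RNA sample 2, S100a8 had a limma adjusted p of 0.0506, while S100a9 and Lcn2 passed with 0.0461 and 0.0298. Within slide 1 alone, with 2 day 0 arrays, S100a9 differed by -3.40 and S100a8 by -3.03 with limma adjusted p of 0.0372 and 0.0428, and Lcn2 by -1.43 with 0.0534. Day 0 RNA samples 1 and 2 gave S100a9 levels 0.30 and 0.40 higher on slide 2 than on slide 1, and S100a8 levels 0.42 and 0.65 higher.

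**Figure D2:**
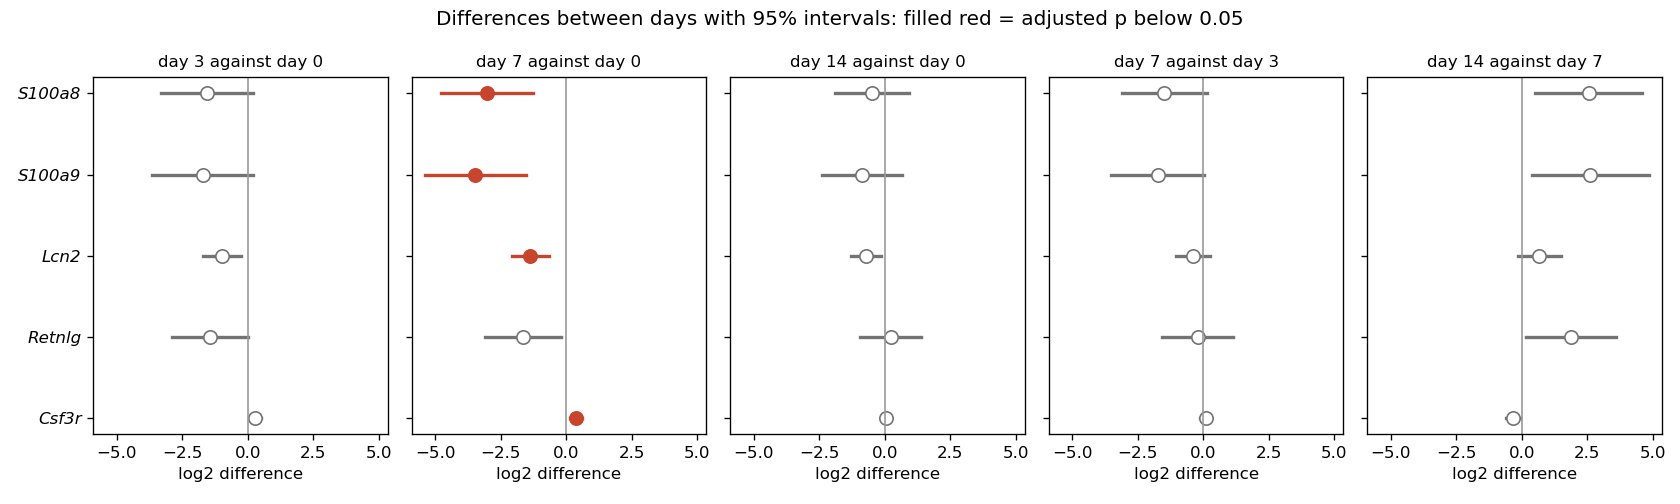
Fitted log2 differences between days (horizontal axis) for the 5 tested neutrophil genes (rows), with bars for the 95% interval and filled red points for an adjusted p below 0.05. Only the day 7 against day 0 panel holds filled points, with S100a9 at -3.47, S100a8 at -3.04, Lcn2 at -1.37 and Csf3r at 0.36.

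At day 3, no tested gene of the 9 passed against day 0, where 5.96% of all features did (1318 at an adjusted and 5570 at an unadjusted p under 0.05 in limma). The differences were -1.72 ± 0.89 for S100a9, -1.54 ± 0.82 for S100a8 and -0.98 ± 0.33 for Lcn2, with limma adjusted p of 0.245, 0.255 and 0.0896. Day 7 against day 3, both on slide 1, gave no call either, with 0.655% of all features called (145, and 3297 unadjusted). There S100a9 differed by -1.75 and S100a8 by -1.50, with limma adjusted p of 0.341 and 0.375, and Lcn2 by -0.39. For S100a9, measured on every array, the estimates of both steps were thus close to each other, and neither step passed on its own. For S100a8, with levels floored at background, they were -1.52 and -0.91.

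At day 14, none of the 5 tested genes passed against day 0, in a comparison that lies on slide 2 and called 0.375% of all features (83, and 4503 unadjusted). S100a9 differed by -0.86, with a 95% interval from -2.40 to 0.67, and S100a8 by -0.48, from -1.88 to 0.92. Without day 14 RNA sample 4 these differences were -0.061 and 0.045. Lcn2 differed by -0.71, from -1.28 to -0.14, with a limma adjusted p of 0.165. Of the 3 genes, Lcn2 thus had the narrowest interval and the lowest adjusted p at day 14.

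Between days 7 and 14 the calprotectin pair was higher at day 14, without passing the threshold. S100a9 differed by 2.61 ± 1.04 and S100a8 by 2.56 ± 0.95, with limma adjusted p of 0.165 and 0.140, in a comparison that called 2.23% of all features (494, and 4879 unadjusted). Without day 14 RNA sample 4, the differences were 3.41 and 3.09, with limma adjusted p of 0.0515 and 0.100. These days lie on different slides, and the result turned on how the slide and the background were treated. With no slide term the differences were 3.05 and 3.11, with limma adjusted p of 0.0226 and 0.0163. That setting called 2573 of all features. With the slide term kept and normexp background correction they were 2.03 and 0.97, with limma adjusted p of 0.0202 and 0.0405. There 4175 of all features were called. Day 14 against day 3 called none of the 5 genes and 0.714% of all features (158, and 3172 unadjusted), with 0.86 for S100a9 and 1.06 for S100a8.

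Over the 3 later days together, the moderated F-test of limma passed Lcn2 alone of the 5, with F = 7.19 and an adjusted p of 0.0341. S100a9 and S100a8 had limma adjusted p of 0.0637 and 0.0782, Csf3r 0.113 and Retnlg 0.220, where 16.8% of all features passed. Without day 14 RNA sample 4, 3 of the 5 passed, where 3658 of all 22124 features did. That call for Lcn2 did not hold without day 0 RNA sample 1, 2 or 4, day 7 RNA sample 1, 2 or 4, or day 14 RNA sample 1.

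S100a8 and S100a9 moved together array by array. Over the 8 arrays of slide 1 their levels correlated at r = 0.984 (Spearman's rho 0.952), and over the 8 of slide 2 at r = 0.958 (rho 1). Without the 2 arrays farthest from the median of S100a9, r was 0.963 and 0.982. These arrays share days and slides, and day 0 RNA samples 1 and 2 are on both slides. S100a8 was well above background on only 5 of the 8 arrays of slide 1 and 7 of the 8 of slide 2. Among 12739 named features well above background on at least 8 arrays, S100a8 had the highest value of the smaller of both correlations. The next were Pafah2 at 0.899, Zfp143 at 0.889, Pcx at 0.816, Paqr4 at 0.807, Tmem52 at 0.801, Irgq at 0.787 and Cnga2 at 0.782. Under normexp background correction, quantile normalization and the deposited series table, the smaller r of S100a8 with S100a9 lay between 0.953 and 0.965.

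The other neutrophil genes followed S100a9 less closely. Lcn2 correlated with it at 0.818 on slide 1 and 0.520 on slide 2, and at 0.405 and 0.326 without the 2 farthest arrays of each slide. Retnlg, near background, correlated at 0.679 and 0.772. Csf3r correlated at -0.539 and 0.246, with opposite signs on the 2 slides.

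**Figure D3:**
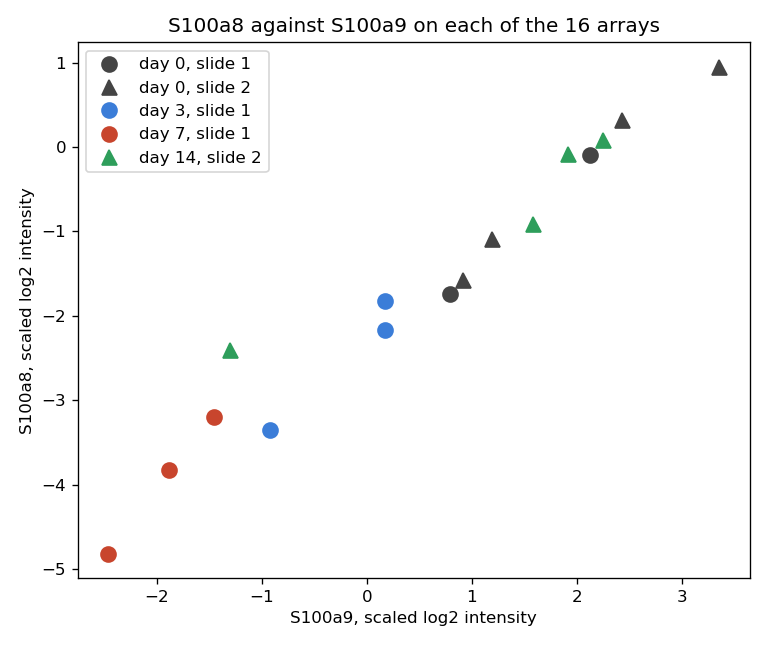
Scaled log2 intensity of S100a8 (vertical axis) against S100a9 (horizontal axis) on the 16 arrays, coloured by day, with circles for slide 1 and triangles for slide 2. Both levels rise together, with the day 7 arrays at the low end and day 14 RNA sample 4 at an S100a9 level of -1.30. S100a8 was well above background on only 12 of the 16 arrays.

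Retnlg encodes resistin-like gamma, a small secreted protein of mouse neutrophils. On slide 1 it stood at -2.43 and -3.06 at day 0, at -4.68, -2.77 and -5.07 at day 3 and at -3.72, -5.33 and -4.10 at day 7. Of these only the first day 0 array and the second day 3 array were well above background. On slide 2 it stood at -1.74, -3.12, -3.20 and -1.54 at day 0 and at -1.57, -2.26, -1.88 and -2.96 at day 14, with 2 and 1 arrays above background. All 3 day 7 arrays lay below both day 0 arrays of slide 1, and the slide 2 groups overlapped. No array of day 7, 3 of 6 of day 0 and 1 of 4 of day 14 measured Retnlg, so no fold is given. With levels floored at background, day 7 differed from day 0 by -0.73 and day 14 from day 7 by 0.84, and with normexp by -0.30 and 0.40. None of these passed, nor did the fit without a floor, with limma adjusted p of 0.0954 and 0.185. With no slide term both comparisons passed, with limma adjusted p of 0.0322 and 0.0268. Without the slide 1 arrays of day 0 both passed too (limma adjusted p of 0.0415 and 0.0250). Neither setting adjusts for the slide, and day 7 lies only on slide 1, which reached lower levels. For a gene not above background at day 7, day and slide cannot be told apart there. Retnlg also entered the test mainly through day 0, which holds 3 of its 5 arrays above background.

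Ngp encodes a neutrophil granule protein. Only the slide 1 array of day 0 RNA sample 2 was well above background for it, at -1.79, and the same RNA on slide 2 stood at -3.95, not above background. The other 14 arrays ranged from -5.98 to -3.02. No fold is given for Ngp.

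Il1b, the cytokine interleukin 1 beta, ranged from -5.65 to -2.66 over the arrays, as the mean of 10 spots per array. Cxcr2, the receptor that draws neutrophils towards chemokines, ranged from -5.38 to -2.07. Mmp9, the gelatinase stored in neutrophil granules, ranged from -5.65 to -3.42, also over 10 spots. As none of their arrays was well above background, these levels carry no order between days.

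Csf3r, the receptor for granulocyte colony-stimulating factor, gave a pattern of another kind. Its scaled level never fell below 6.97, while S100a9, the next brightest of the 9, reached 3.36 at most. Whether the Csf3r probe reads RNA of neutrophils in the muscle was not tested. On slide 1 Csf3r stood at 7.21 and 6.97 at day 0, at 7.41, 7.46 and 7.29 at day 3 and at 7.53, 7.60 and 7.31 at day 7. On slide 2 it stood at 7.36, 7.28, 7.43 and 7.41 at day 0 and at 7.39, 7.48, 7.39 and 7.35 at day 14. The days 3 and 7 arrays lay above both day 0 arrays of slide 1, while the slide 2 groups overlapped. It was higher at day 7 than at day 0 by 0.36 ± 0.11, 1.29-fold, with a limma adjusted p of 0.0295. This call was lost within slide 1 (0.39, limma adjusted p = 0.122), with no slide term (0.21, 0.181), on quantile-normalized intensities (0.17, 0.169), in the deposited series table (0.21, 0.175) and when scaled on probes above background on all arrays (0.23, 0.0764). Without the slide 1 arrays of day 0 the difference was 0.11, with a limma adjusted p of 0.432. The call was also lost without day 0 RNA sample 1 or 2 or day 7 RNA sample 1 or 2, with limma adjusted p of 0.0523, 0.298, 0.0864 and 0.107. Day 0 RNA samples 1 and 2 read 0.14 and 0.31 higher on slide 2 than on slide 1.

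Companion genes of neutrophils were read beside the 9, and their counts at day 7 stand beside 23.7% of all features called either way and 8.11% called lower. Of 18 tested genes for granule and cytosol proteins, 3 fell at day 7 and none rose, and the list's median difference was -0.58 against 0.09 over all features. Pglyrp1, a bactericidal peptidoglycan-binding granule protein, differed by -1.09 ± 0.33, Lrg1, a secreted glycoprotein, by -0.94 ± 0.26, and G0s2, an inhibitor of triglyceride breakdown, by -1.14 ± 0.31. Their limma adjusted p were 0.0287, 0.0196 and 0.0191. Pglyrp1 alone also fell at day 3, by -1.20 ± 0.33 with a limma adjusted p of 0.0475, and it was above background only on slide 1. No gene of this list was called at day 14, where its median was -0.14. In 3 other treatments of the slide (no term for it, day 0 taken from slide 2 alone, or slide 1 alone) the day 7 call held in 1 for Pglyrp1, 1 for Lrg1 and 2 for G0s2.

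Of 10 tested surface receptor genes, 3 fell at day 7 with a list median of -0.46, and none was called at days 3 or 14 against day 0, with medians of 0.04 and 0.09. Fcgr3, an immunoglobulin receptor, differed by -1.37 ± 0.43, Itgb2, the beta 2 integrin chain, by -0.88 ± 0.26 and Itgam, its alpha M partner, by -0.44 ± 0.14. Their limma adjusted p were 0.0356, 0.0270 and 0.0385. Fcgr3, unlike Itgb2 and Itgam, was not well above background on every array, and its difference ran from -1.56 to -0.59 over the other settings. Itgam has 3 probes that disagree, and with their mean the difference was 0.11. The call held in 2 of those 3 treatments for Itgb2 and Itgam and in 0 for Fcgr3. These 3 genes are also expressed by macrophages.

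Of 8 tested genes for the oxidase and for myeloid transcription factors, none was called at any day against day 0, and the day 7 median was -0.38. Of 4 tested chemoattractant and growth factor genes none was called, with a day 7 median of -0.23, and Csf3, Cxcl2, Cxcl3, Cxcl5, Csf2, Il17a and Il6 were above background on no array. In the interleukin 1 pathway 1 of 10 tested genes was called. Il1rl1, the receptor of interleukin 33, was called higher at days 3 and 7, with limma adjusted p of 0.0195 and 0.0320. On slide 1 it ran from -4.42 to -2.82 at day 0, from -2.16 to -1.31 at day 3 and from -2.58 to -2.31 at day 7. It was above background on all 6 arrays of days 3 and 7 but on only 1 of 6 day 0 arrays and so entered the test through the days at which it is high, and no size is given. The day 3 call held in 2 of the 3 other treatments of the slide and the day 7 call in 0. The list medians were 0.28 at day 3, -0.05 at day 7 and 0.16 at day 14.

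Of 11 tested receptors and partners of the secreted proteins, Bsg, a binding partner of S100A9, differed by -0.997 ± 0.25 at day 7 and Cd36, a scavenger receptor, by 0.65 ± 0.16, with limma adjusted p of 0.0134 and 0.0123. Both calls were lost in all 3 other treatments of the slide, and Bsg changed sign in 1 of them. Tlr4, the receptor through which calprotectin signals, was above background on all arrays and was not called, and Ager was above background on none. So 2 of 11 were called at day 7, where 23.7% of all features were. In the endothelial adhesion list 2 of 8 were called, near that share, Icam2 at 0.62 ± 0.18 and Pecam1 at -0.65 ± 0.16, with limma adjusted p of 0.0285 and 0.0122. The call held in 1 of the 3 treatments for Icam2 and in 0 for Pecam1.

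Markers of macrophages and of erythroid cells were called against day 0 as well. No marker of platelets, of T, B and NK cells, of mast cells and eosinophils or of keratinocytes was. Among all features, 8.11% were called lower at day 7, and 5.96%, 23.7% and 0.375% were called either way at days 3, 7 and 14. Of 13 tested macrophage and monocyte markers 4 fell at day 7, with a list median of -0.67, all 13 differences below 0 and none called at day 3 or day 14. The complement genes C1qa and C1qb differed by -1.62 ± 0.36 and -1.53 ± 0.36 and the lysozyme gene Lyz2 by -1.53 ± 0.49, with limma adjusted p of 0.00772, 0.00975 and 0.0370. The calls held in 1, 2 and 1 of the 3 other treatments of the slide. The summed scaled level of the list ran from 4.49 to 4.99 at day 0, from 4.35 to 5.74 at day 3 and from 3.91 to 4.07 at day 7 on slide 1. Its day 7 arrays lay below all others of slide 1, as with S100a9. On slide 2 it ran from 4.40 to 4.93 at day 0 and from 4.35 to 4.44 at day 14.

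Of 9 tested erythroid markers 4 fell at day 3, 2 fell at day 7 and 6 rose at day 14. Among all features, 5.96% were called at day 3, 23.7% at day 7 (8.11% lower) and 0.375% at day 14. The globin gene Hbb-b1 differed by -2.26 ± 0.32 at day 3 and -1.59 ± 0.32 at day 7, and Hba-a1 by 1.74 ± 0.24 at day 14. The limma adjusted p were 0.00821, 0.00573 and 0.0105. Tfrc, the transferrin receptor gene, differed by -1.63 ± 0.28 at day 7 with a limma adjusted p of 0.00355, and it alone of these held in all 3 other treatments of the slide. Without the slide 1 arrays of day 0, Hbb-b1 at day 7 differed by 0.23, while Hba-a1 kept its call with no slide term and without those arrays. The summed level of the list ran on slide 1 from 9.44 to 9.79 at day 0, from 8.73 to 9.50 at day 3 and from 9.45 to 9.88 at day 7. On slide 2 it ran from 9.65 to 10.2 at day 0 and from 11.1 to 11.9 at day 14. Its order over days thus differed from that of S100a8 and S100a9, which were lowest at day 7 and not called at day 14. Of the 19 named companion and marker genes called at day 7, muscle genes included, 0 passed when day 0 RNA sample 2 was left out and 6 when it was sample 1. Leaving out sample 1 of day 7 kept 11, and leaving out sample 2 of that day kept 8. The part of macrophages, of blood volume in the muscle or of the slide in the neutrophil gene levels was not tested.

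**Figure D4:**
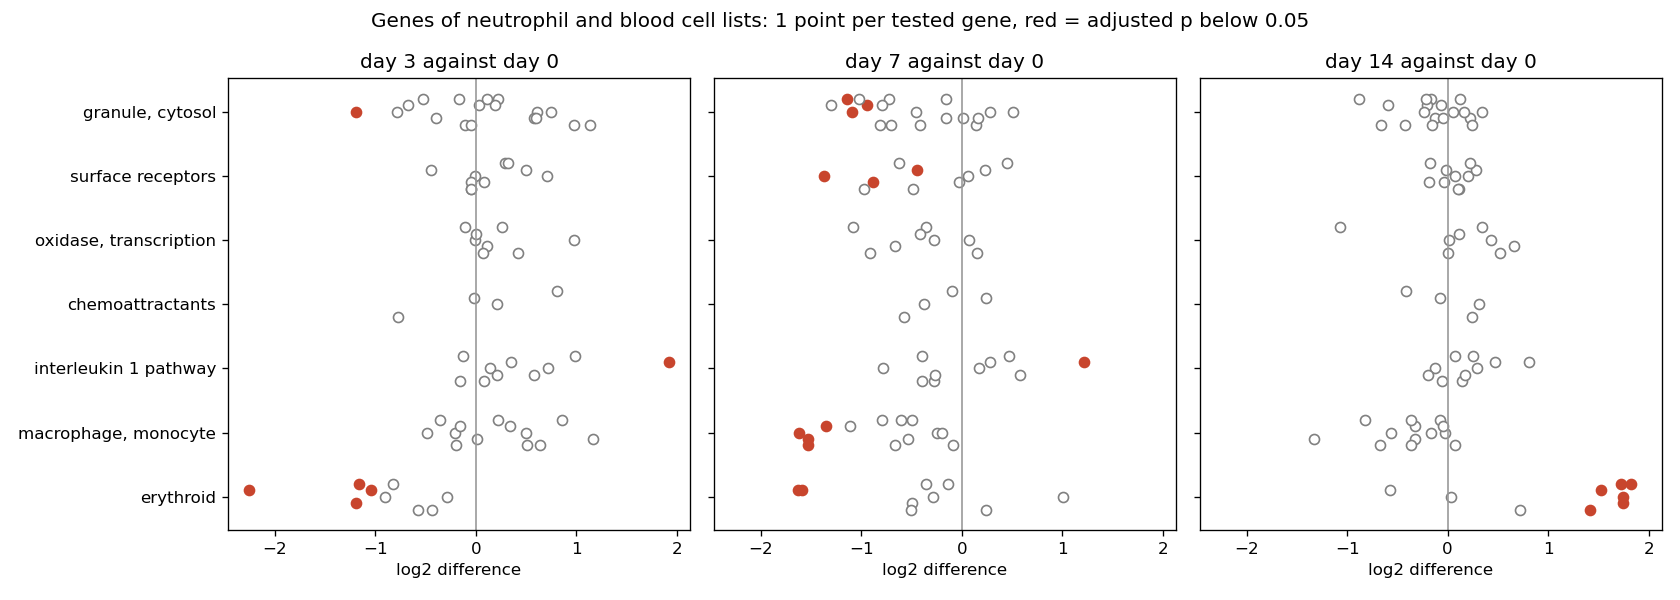
Fitted log2 differences from day 0 (horizontal axis) for the tested genes of 7 lists (rows), 1 panel per day and 1 point per gene, red where the adjusted p was below 0.05. At day 7 the 3 called genes of the granule and cytosol list, 3 surface receptors and 4 macrophage markers lie to the left of 0. At day 14 only erythroid markers are red, to the right.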

How the data were processed

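Total RNA from 14 soleus samples was labelled with Cy3 and hybridised to 16 Agilent arrays. Per the file headers, the deposited scanner files hold spot intensity, background-subtracted by Feature Extraction 11.0.1.1 and unscaled. The deposited series table also holds linear intensity, by steps not given in the sources used here, and was an alternative. Without control and outlier spots, the log2 intensity less the 75th percentile of the array was averaged over each probe's spots. RefSeq transcripts gave 27656 of 55681 probes a symbol. A probe had to be well above background on 3 or more of the 16 arrays, and the brightest stood for its gene (22124 features). Limma 3.58.1 (R 4.3.3, statmod 1.5.0) fitted day and slide, with RNA sample as random block (array correlation 0.441, 11 residual degrees of freedom), 2-sided. Calls were made at a Benjamini-Hochberg adjusted p under 0.05 over all features. Data were simulated for day 7 against day 0 with 22124 features. There, 30 of 50 changes of 1 log2 unit, 44 of 50 of 2 and 96 of 100 of 3 were recovered. False calls numbered 8. These rates pool the changed features of each size, so they cannot give the recovery for S100a8 or S100a9. The day 7 standard errors of these genes were 0.82 and 0.89. In the real data, leaving out day 0 RNA sample 2 took the calls from 5247 to 106. The simulated false calls thus do not measure those in the real data. The number of RNA samples sets the precision.

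As the files lack the mean signal, the normexp alternative (offset 50) used the median signal. Other alternatives were scaling on probes seen on every array, quantile normalization, a floor at background, other filters, the mean over probes, other treatments of the slide, the replicate number as a block, and each RNA sample left out. Without day 0 RNA sample 1 or 2, the array correlation was taken from the full fit. Deviations of same-numbered samples from their day means correlated at -0.153 to 0.169. Differently numbered samples were not set beside them, so these values cannot decide whether replicate numbers pair samples.

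The 9 genes, the companion lists and the marker lists were chosen with earlier results of these data known. From each list the text names up to 3 called genes per direction and comparison with day 0, by size, and the 8 features most like S100a9. Genes named as never above background or as above it on every array, and Tlr4, Pf4 and Itgb3, were chosen after their values were seen. Python 3.11.15 with pandas 2.3.3, NumPy 2.4.6 and Matplotlib 3.10.9 served for tables and figures.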

Additional observations from a re-analysis of the deposited data

Results flagged for a closer look

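Among 18 groups of 4 arrays of the 9 genes (slide 2, days 0 and 14), 1 held an array far from the others. Mmp9 on the array of day 14 RNA sample 4 stood at a scaled level of -3.42, while the other 3 day 14 arrays lay between -3.90 and -3.84. No array was well above background for Mmp9, so the value has no measured level. About 1 in 20 such groups is expected to be marked by chance. The low S100a8 and S100a9 levels of the same RNA sample, -2.41 and -1.30, were not marked.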

How the results depend on the processing

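The day 7 falls of S100a8, S100a9 and Lcn2 kept their direction in every setting in which they could be fitted. They passed in 21 of 25, 24 of 26 and 24 of 26 settings. Some of these settings leave out only a day 3 or day 14 RNA sample, so the day 0 and day 7 samples stay the same. The S100a9 call was lost without day 0 RNA sample 1 or 2, with limma adjusted p of 0.105 and 0.0814. With the replicate block the 4 calls held, with differences of -3.03, -3.46, -1.39 and 0.37 and limma adjusted p of 0.0193, 0.0191, 0.0124 and 0.0442 for S100a8, S100a9, Lcn2 and Csf3r. The block changed no other call among the 9 genes.

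The count of genes called at day 7 against day 0, 4 in the fit as reported, was 2 with the deposited series table and 2 within slide 1. With 1 RNA sample left out it was 0 to 4. All 22124 features gave 4506 calls with the series table and 2010 within slide 1, against 5247 as reported. S100a8 differed by -1.48 with the series table (limma adjusted p = 0.0720) and by -1.23 with normexp. At day 3 against day 0 normexp called 1 gene, and so did the filter to probes seen on every array. Normexp called 3478 of all features there, against 1318 in the fit as reported. Day 14 against day 7 had 3 calls with normexp, 3 with no slide term and 3 on leaving out the slide 1 arrays of day 0. In these settings 4175, 2573 and 4159 of all features were called, against 494 as reported. Day 14 against day 3 had 1 of the 9 genes called with no slide term and 1 without the slide 1 arrays of day 0. All features then gave 2179 and 4210 calls, against 158 as reported. The F-test over days, with 1 gene as reported, passed 3 with normexp, 4 without a slide term and 4 on leaving out those arrays. It passed 0 with no filter on dim probes, 2 with probes above background on all arrays and 2 with the floor at background. With 1 RNA sample left out it passed 0 to 3. Among all features it passed 3721 as reported, 6274 with normexp and 5204 with no slide term. It passed 5237 of them without the slide 1 arrays of day 0 and 5688 with the floor.

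Csf3r changed sign at day 14 against day 0 with normexp (-0.079), quantile normalization (-0.094), scaling on probes above background on all arrays (-0.032) and the series table (-0.081). At day 7 against day 3 it did so with quantile normalization (-0.025), that scaling (-0.0063) and the series table (-0.051), and at day 14 against day 3 with no slide term (0.017) and on leaving out slide 1's day 0 arrays (0.017). Without those arrays the differences turned to 0.19 and 0.017 for Tnni1 at days 3 and 7, and to 0.28 for Bsg, 0.23 for Hbb-b1 and 0.12 for Tnnc1 at day 7, and Itgam turned to 0.11 with the mean over probes. With 1 RNA sample left out, differences that changed sign ranged from -0.041 to 0.64 for Lcn2 at day 14 against day 3, from -0.66 to 0.49 for Retnlg at day 7 against day 3, from -0.036 to 0.52 for Retnlg at day 14 against day 0 and from -0.89 to 0.045 for S100a8 at day 14 against day 0. The cause of these changes was not tested.

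All features gave 5247 calls at day 7, 1795 of them lower, and 4810 with 2566 lower when scaled on probes above background on all arrays, a scaling that moved the median difference of all features from 0.09 to -0.04. The other settings ranged from 2010 to 7125 calls, and those with 1 RNA sample left out from 106 to 5802. Spots near background limit S100a8 at day 7 and Retnlg throughout.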

Other observations

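None of 6 tested platelet markers, 8 markers of T, B and NK cells, 6 of mast cells and eosinophils and 7 of keratinocytes was called at any day against day 0. Their day 7 medians were -0.33, 0.25, -0.07 and 0.05. Of all features, 5.96% were called at day 3, 23.7% at day 7 and 0.375% at day 14. The 6 mast cell and eosinophil markers had medians of 0.53 at day 3 and 0.64 at day 14, against 0.06 and 0.05 over all features, with 1 and 0 of the 6 below 0. The other 3 lists had medians between -0.20 and 0.06 at those days. From day 3 to day 7 the platelet genes Pf4, a platelet chemokine, and Itgb3, an integrin chain, fell by 1.04 and 0.95 on the log2 scale, with limma adjusted p of 0.0336 and 0.0338. These were chosen after their values were seen. Both days lie on slide 1, and 0.655% of all features were called between them.

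Of 10 slow-muscle markers, the troponin gene Tnni1 differed by -0.87 ± 0.20 at day 3 and -1.05 ± 0.20 at day 7 and Tnnc1 by -0.51 ± 0.17 at day 7, with limma adjusted p of 0.0292, 0.00459 and 0.0393. In the 3 other treatments of the slide these calls held in 0, 1 and 0, and without the slide 1 arrays of day 0 the differences were 0.19, 0.017 and 0.12. Of 6 fast-fibre genes, Pvalb, a calcium buffer of fast fibres, rose by 1.65 ± 0.51 at day 7 with a limma adjusted p of 0.0323, and held in 2 of those treatments. These calls stand beside 5.96% of all features called at day 3 and 23.7% at day 7.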
